A study of Mus musculus and Homo sapiens with 9 samples.

Results

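The genes described here encode splicing factors and heterogeneous nuclear ribonucleoproteins (hnRNPs). They were chosen by name, as protein-coding genes whose symbols start with Srsf, Snrp, Hnrnp, Sf3a, Sf3b, Prpf, U2af or Srrm followed by the number or letter the family uses. The rule found 73 genes among 21887 protein-coding genes on placed chromosomes, and they lay on 18 chromosomes. The other 19678 protein-coding genes on those chromosomes were the background. Binding was read from chromatin immunoprecipitation and sequencing (ChIP-seq) in B16 cells, a mouse melanoma line, in which the Tdg gene carries a knocked-in HA tag. Both libraries came from cells of that genotype: one was made with an antibody to HA, which recovers tagged thymine DNA glycosylase (TDG), and the other with an antibody to the transcription factor p53. Each is 1 library with no replicate, so no value below has a spread between cultures. No treatment is named for these 2 samples, and whether the knock-in line is a single clone is not stated in the labels. The other 7 samples, namely the input, IgG, the HA antibody in WT cells and the p53 antibody in Trp53 KO cells, all B16, and 3 libraries of the human line NCI-H1299, were not analysed here. Whether the peaks depend on the tag or on p53 was therefore not tested, and peak lists hold no expression values with which to check the cell type.

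Introns are removed from RNA by the spliceosome, which is built from small nuclear ribonucleoproteins (snRNPs) and many partner proteins. Snrp genes encode the Sm ring and particle-specific proteins of the snRNPs, Sf3a and Sf3b genes the U2 snRNP complexes that recognise the branch point, and U2af genes the factor that reads the end of the intron. Prpf genes encode precursor RNA processing factors, many of them in the U4/U6.U5 particle. SR proteins (Srsf) and hnRNPs bind RNA and often act in opposite directions on the choice of splice sites. TDG is a base excision repair enzyme that removes mismatched thymine and some, not all, oxidised forms of methylcytosine. Many promoters of broadly expressed genes, splicing genes among them, are CpG islands.

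TDG had a peak at an end of 20 of the 73 splicing genes (27.4%, exact 95% interval 17.6 to 39.1%). A peak was counted where its summit lay within 1 kb of either end of the gene. Among the other protein-coding genes of the same chromosomes 2372 had one (12.1%), so the share among splicing genes was 2.27 times the background. These intervals cover counting error only, and genes are not replicates. The 20 genes were Hnrnpa3, Hnrnpa1, Hnrnpa2b1, U2af2, Snrpd3, Srsf2, Srsf5, Hnrnpl, Snrpd2, Srsf3, Prpf4b, Sf3a2, Hnrnpc, Hnrnpul2, Snrpg, Hnrnpdl, Srrm1, Srsf1, U2af1 and Hnrnph3. Each had 1 such peak, and none had peaks at both ends. For 18 of them the strand was listed, and in all 18 the peak lay at the start of the gene. Among the other genes with a peak and a listed strand, 96.3% of 1987 had it at the start.

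The sequences before some of these starts are shown because the peaks lay on them. Each line is the longest stretch of the 250 bases before a listed start that lay outside every annotated gene, from RefSeq on GRCm38.p6 (the assembly behind mm10). Capitals mark matches, on either strand, to the motifs described further on. The first 4 genes had a TDG peak that covered the whole stretch, and in Hnrnpc and Snrpg the summit itself lay in it. Snrpe and Snrpn, which encode Sm proteins of the same ring family as Snrpg, had no TDG peak.
Hnrnpa3 (chr2:75659009-75659104, plus strand): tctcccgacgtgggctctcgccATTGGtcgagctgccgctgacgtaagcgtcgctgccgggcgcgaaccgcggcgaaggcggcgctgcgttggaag
Hnrnpa2b1 (chr6:51470049-51470144, minus strand): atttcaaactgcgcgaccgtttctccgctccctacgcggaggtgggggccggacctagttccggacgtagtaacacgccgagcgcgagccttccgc
Hnrnpc (chr14:52104040-52104240, minus strand): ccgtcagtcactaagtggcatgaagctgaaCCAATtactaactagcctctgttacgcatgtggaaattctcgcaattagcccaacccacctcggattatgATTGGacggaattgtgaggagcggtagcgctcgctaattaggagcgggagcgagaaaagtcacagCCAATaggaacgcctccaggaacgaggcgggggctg
Snrpg (chr6:86371290-86371539, plus strand): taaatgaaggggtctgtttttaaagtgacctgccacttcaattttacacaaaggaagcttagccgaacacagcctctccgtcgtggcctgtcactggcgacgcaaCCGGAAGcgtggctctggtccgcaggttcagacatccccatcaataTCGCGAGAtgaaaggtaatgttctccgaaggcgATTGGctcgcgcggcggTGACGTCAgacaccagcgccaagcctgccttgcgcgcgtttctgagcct
Snrpe (chr1:133610281-133610530, minus strand): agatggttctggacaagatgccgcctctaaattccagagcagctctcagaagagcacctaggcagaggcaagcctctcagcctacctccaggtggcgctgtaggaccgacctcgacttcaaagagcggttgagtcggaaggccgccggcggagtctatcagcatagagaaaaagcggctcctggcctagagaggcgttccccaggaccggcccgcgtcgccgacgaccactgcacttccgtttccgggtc
Snrpn (chr7:60450178-60450427, minus strand): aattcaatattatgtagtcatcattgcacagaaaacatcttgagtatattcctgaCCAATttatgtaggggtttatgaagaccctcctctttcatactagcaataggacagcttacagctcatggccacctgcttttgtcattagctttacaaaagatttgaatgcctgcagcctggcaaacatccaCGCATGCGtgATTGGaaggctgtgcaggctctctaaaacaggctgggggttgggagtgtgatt
The stretch before Hnrnpa3 held 17 CpG dinucleotides in 96 bases, and the one between Hnrnpa2b1 and its neighbour held 14 in 96. Snrpg had 21 in 250 bases and Hnrnpc 13 in 201. Snrpe, without a peak, had 19 in 250, close to Snrpg, whereas the stretch shown for Snrpn had 2 in 250. That stretch lies before the outermost start of a long gene model (59982495 to 60450177). Any start further inside Snrpn was not examined, so the count does not describe all its promoters. Among these 6 genes, a like number of CpG dinucleotides was found with a peak (Snrpg) and without one (Snrpe).

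The strongest TDG peaks of the set lay at the 3 genes of the hnRNP A and B family that had one. Hnrnpa3 (GeneID 229279, chromosome 2, 75659105 to 75669407) had a peak from 75658794 to 75659265 with a fold enrichment of 9.89 and a −log10 q of 21.4. The fold enrichment is the authors' value, the scaled summit over the local background of the peak caller, with a constant added to both. The summit lay 13 bases inside the gene and held 37 reads (exact Poisson 95% interval 26.1 to 51.0). Its local background of 2.56 reads was the genome-wide value. By fold the peak ranked 51 of the 2290 TDG peaks at gene ends, above 97.3% of them. The protein is a relative of hnRNP A1 that binds RNA in splicing and transport.

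Hnrnpa1 (chromosome 15, 103239943 to 103246698) came next at 8.33-fold. Its summit held 31 reads, and its −log10 q was 15.3. It encodes one of the most abundant hnRNPs, a well-known antagonist of SR proteins. Its peak ran from 103239302 to 103240685, and at 1384 bases it was the widest of the set and 10 of 2290 by width. The summit lay 505 bases before the gene, inside Cbx5, which is read in the opposite direction and starts 39 bases away.

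Hnrnpa2b1 (chromosome 6, 51460434 to 51470048) had a peak from 51469822 to 51470493 at 7.47-fold. It held 34 reads, and its −log10 q was 15.2. Its summit lay 75 bases inside the gene. Across a gap of 106 bases is the start of Cbx3, and this shared promoter is known in human cells as a ubiquitous chromatin opening element that resists silencing. Cbx3 and Cbx5 encode the heterochromatin proteins HP1 gamma and HP1 alpha, so 2 of the 3 highest peaks covered the starts of both an hnRNP gene and an HP1 gene. The other relatives did not follow: Hnrnpa0 and Hnrnpab had no peak at an end, and their nearest TDG summits lay 2612342 and 12649 bases away.

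Among the remaining hnRNP genes, Hnrnpl had a 6.51-fold peak (chromosome 7, 28808880 to 28809505, −log10 q 9.87). It encodes a protein that binds CA-rich RNA. Hnrnpc, which coats nascent transcripts and binds uridine tracts, and Hnrnpul2, a relative of the scaffold protein hnRNP U, each reached 5.73-fold with 21 reads at the summit. Hnrnpdl had a 5.21-fold peak with 19 reads, the fewest of the set. Hnrnph3, whose family binds runs of guanines, had the lowest fold of the 20 at 3.31, with a −log10 q of 3.68. In all, 8 of 21 Hnrnp genes had a peak at an end (38.1%, exact interval 18.1 to 61.6%).

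SR protein genes had a peak in 4 of 11 cases (36.4%, exact interval 10.9 to 69.2%). Srsf2, which encodes SC35, a standard marker of nuclear speckles, had a peak from 116853080 to 116853659 on chromosome 11. Srsf5, which encodes SRp40, had one from 80945936 to 80946294 on chromosome 12. The 2 peaks had the same deposited fold of 6.72, the same count of 28 reads and the same −log10 q of 11.1. Srsf3, which encodes the smallest SR protein, had a 6.25-fold peak (chromosome 17, 29032366 to 29032876, −log10 q 9.03). Srsf1, which encodes the founding SR protein ASF/SF2, had 28 reads at its summit, as many as Srsf2, but a fold of 4.48, because its local background was 5 reads against 3. Srsf4, Srsf6, Srsf7, Srsf9, Srsf10, Srsf11 and Srsf12 had none.

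The Sm proteins accounted for all peaks among the Snrp genes, 3 of 12 (25%, exact interval 5.49 to 57.2%). Snrpd3 (chromosome 10, peak 75517199 to 75517902, −log10 q 10.7) reached 6.77-fold. That peak lay inside the neighbouring gene Gucd1 and did not reach Snrpd3, and its summit was 616 bases before Snrpd3. Snrpd2 (chromosome 7, peak 19149298 to 19149809, −log10 q 10.3) reached 6.26-fold and Snrpg 5.44-fold. The other Sm genes Snrpb, Snrpd1, Snrpe, Snrpf and Snrpn had none, and neither did Snrpa, Snrpc, Snrpa1 and Snrpb2, which encode proteins specific to the U1 or U2 particle. The 7 genes named Snrnp, outside the naming rule and counted only after the data were seen, had no peak at an end (exact interval 0 to 41.0%). That interval includes the background of 12.1%. Counts this small cannot tell the classes of snRNP protein apart.

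U2AF had a peak at the genes of both its subunits. U2af2, the large subunit that binds the polypyrimidine tract, had a 7.03-fold peak (chromosome 7, 5061049 to 5061814, −log10 q 11.5, summit 804 bases inside the gene). U2af1, the small subunit that contacts the AG of the splice site, had 41 reads at its summit (interval 29.4 to 55.6), the most of the 20. Its fold was nevertheless 4.32, the second lowest, because its local background was also the highest of the set at 8 reads. The related gene U2af1l4 had no peak. Hnrnph3 (6 reads), Srsf1 (5 reads) and Srrm1 (4 reads) had the next highest local backgrounds. With U2af1 they had the 4 lowest folds of the set.

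The shares of the SF3 and PRPF genes were near the background of 12.1%. Of 9 Sf3a and Sf3b genes 1 had a peak at an end (11.1%, exact interval 0.281 to 48.2%). It was Sf3a2 (5.99-fold, chromosome 10), and Sf3b1, the subunit often mutated in blood cancers and uveal melanoma, had its nearest TDG summit 25292 bases away. Of 13 Prpf genes 1 had one (7.69%, exact interval 0.195 to 36.0%), Prpf4b, which encodes a kinase (5.99-fold, chromosome 13). Prpf8, Prpf6, Prpf3 and Prpf31, mutated in inherited retinal degeneration, had none at an end. Srrm1, a speckle protein, had a 4.82-fold peak, and Srrm2, Srrm3 and the neuronal Srrm4 had none there. Grouped after the values were seen, Srsf and Hnrnp genes had a peak in 12 of 32 cases (37.5%, interval 21.1 to 56.3%) and Snrp, Sf3 and Prpf genes in 5 of 34 (14.7%, interval 4.95 to 31.1%). These intervals overlap, and the difference was not tested.

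**Figure D1:**
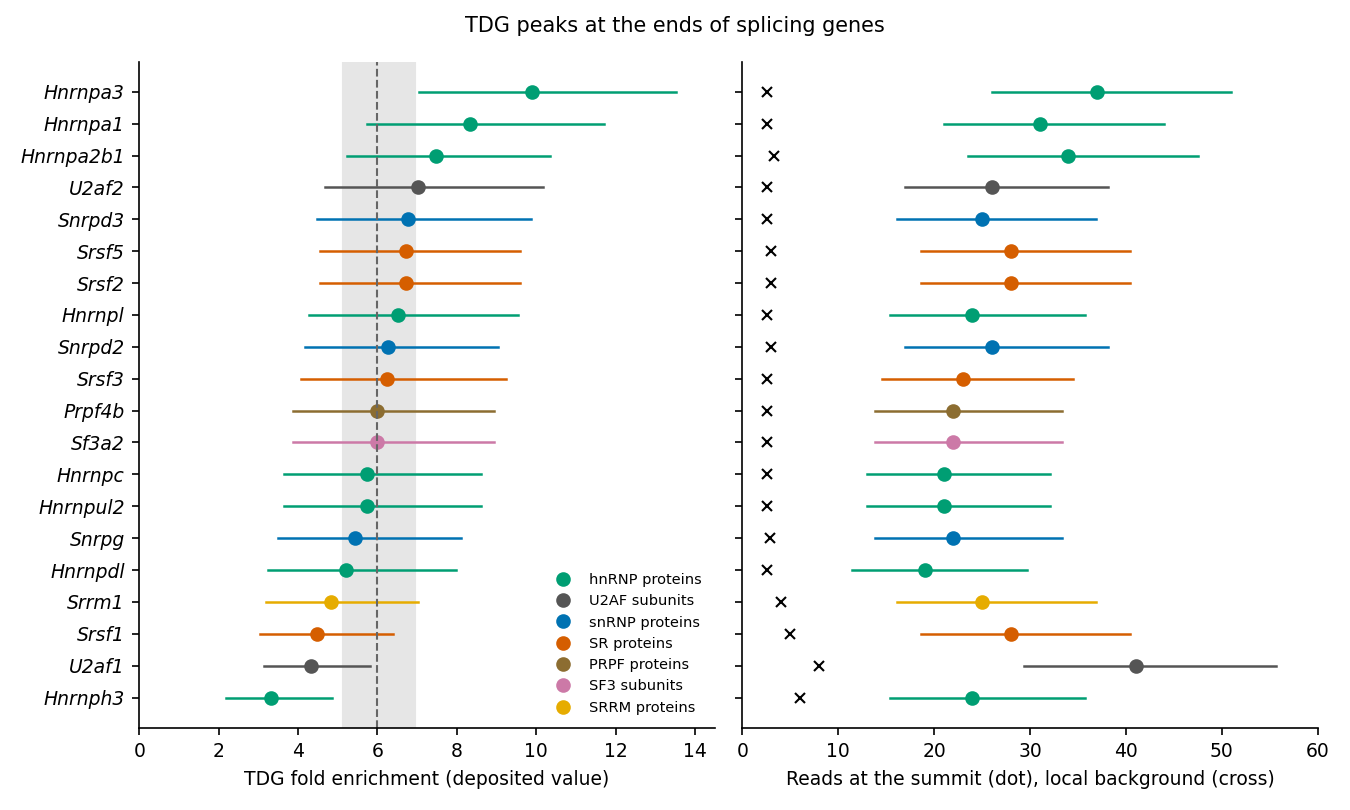
Left, TDG fold enrichment of the 20 peaks at splicing gene ends, with lines for the exact 95% counting interval carried over from the summit reads, beside the median (dashed, 5.99) and quartiles (grey) of the other gene-end peaks. Right, reads at each summit with their exact Poisson 95% interval and the local background. Hnrnpa3 stands highest by fold, and U2af1 has the most reads but also the highest background.

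The peaks at splicing genes were about as strong as other peaks at gene ends. Their median fold was 6.12 (quartiles 5.38 and 6.73, n = 20 peaks), beside 5.99 (quartiles 5.14 and 6.94) for the other 2270 peaks at gene ends, and 12 of the 20 were at or above that median. The median width was 491.5 bases beside 433 bases, and the median summit held 25 reads beside 24. The counting intervals of most of the 20 folds overlapped. The intervals were apart for a few pairs at the extremes. That of Hnrnpa3, from 7.05 to 13.5, lay above those of Srrm1 (3.19 to 7.02), Srsf1 (3.03 to 6.40), U2af1 (3.13 to 5.82) and Hnrnph3 (2.17 to 4.86). Those of Hnrnpa1 (5.75 to 11.7) and Hnrnpa2b1 (5.24 to 10.3) lay above that of Hnrnph3.

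Within the start region the summits were spread. Measured from the outermost annotated start, 8 of 18 summits lay before the gene and 10 inside it, at a median distance of 204 bases. For the other genes the median was 133 bases. Srsf1 (845 bases), Prpf4b (835), Hnrnpl (801) and Srsf5 (617) had summits far inside, and 4 of 18 (22.2%) lay at least 500 bases in, beside 6.81% of 1938 peaks at other starts. Some of these genes have several listed starts, and not every gene has one at its outermost end. In Srsf1, Prpf4b and Srsf2 the listed start nearest that end lay 874, 709 and 581 bases inside it. Their summits lay 29, 126 and 94 bases from a listed start. Which start is used in these cells was not measured. Against the nearest listed start the median distance was 163 bases for splicing genes and 140 bases for other genes. Only the gene-end summit of Hnrnpl stayed over 1 kb away, at 1543 bases. The listed start nearest the end of Hnrnpl lay 2344 bases from it. Hnrnpl held 2 TDG summits in the gene, and the second, deeper one is not part of these distances.

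**Figure D2:**
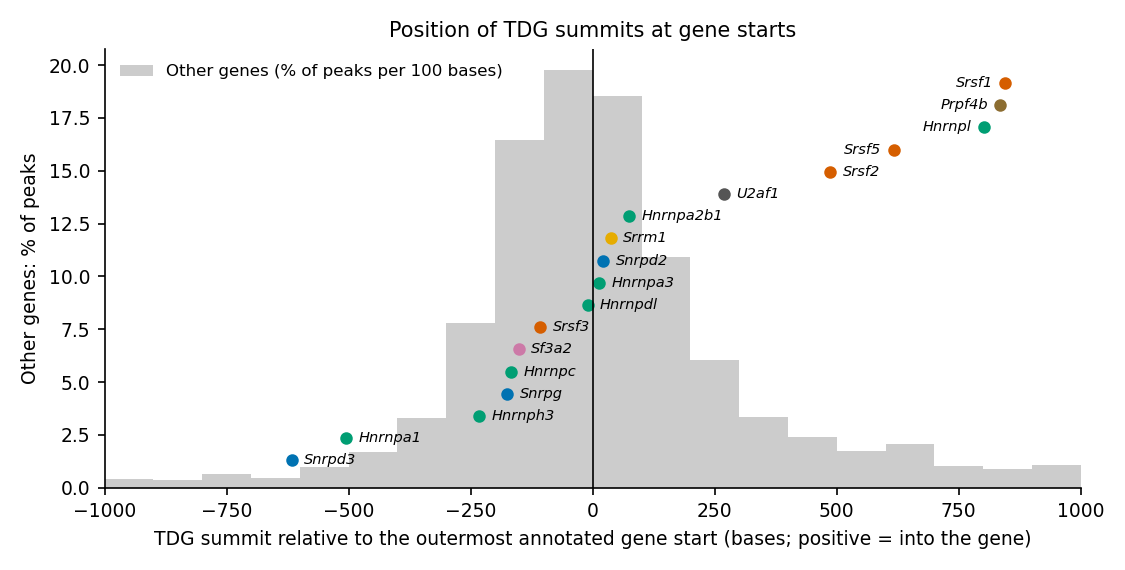
TDG summits relative to the outermost annotated start of each gene, in bases, positive into the gene. Points are the 18 splicing genes with a listed strand, in order of position and coloured by family as in the plot of folds, and their height has no meaning. Bars give the percentage of the 1938 peaks at other starts in each step of 100 bases. Srsf1, Prpf4b, Hnrnpl and Srsf5 lie in the sparse right tail.

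The limit of 1 kb left out a few genes. The member nearest inside it was Srsf1 at 845 bases, and the nearest outside were Hnrnpul1 at 1097 bases (5.00-fold) and Prpf8 at 1294 bases (7.81-fold). A further 4 splicing genes had a TDG summit in the gene but none at an end, namely Hnrnpf, Hnrnph1, Srrm2 and Hnrnpul1, as did 2.44% of the other genes. At 3 of them the summit sat on an internal start: 16 bases from a listed start at Hnrnph1 (6.64-fold, 29 reads), 58 bases at Hnrnpf (6.73-fold, 29 reads) and 103 bases at Srrm2 (5.99-fold, 22 reads). At Hnrnpul1 the nearest listed start was 412 bases away. Hnrnph2, on the X chromosome, had its nearest TDG summit 28589415 bases away, and 1 of 965 other genes on that chromosome had a gene-end peak. Counted from any listed start, a count chosen after seeing the data, 22 of 64 splicing genes (34.4%) and 13.3% of 15619 others had a TDG summit within 1 kb.

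For 11 of the 20 genes (55%) the same peak also lay within 1 kb of an end of another protein-coding gene, beside 33.4% of the other 2372 genes with a peak. The difference between these shares was not tested. In 6 of the 11 the summit was nearer to the neighbour. In 8 of the 11 pairs the genes were listed on opposite strands, and in 3 a strand was not listed. Besides Cbx5 and Cbx3, the neighbours were Ccdc106 (at U2af2), Gucd1 (at Snrpd3), Mfsd11 (at Srsf2), Qpctl (at Snrpd2), Plekhj1 (at Sf3a2), Rpgrip1 (at Hnrnpc), Ttc9c (at Hnrnpul2), Enoph1 (at Hnrnpdl) and Pbld2 (at Hnrnph3). At Hnrnph3 the summit lay inside Pbld2, 160 bases from its end and 233 bases before Hnrnph3, and the peak did not reach Hnrnph3. At Sf3a2 the summit lay 151 bases before the gene and 42 bases inside Plekhj1. At Hnrnpc it lay 167 bases before the gene and 35 bases from the start of Rpgrip1, between the 2 genes. Which gene of a pair such a peak belongs to cannot be told from its position.

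**Figure D3:**
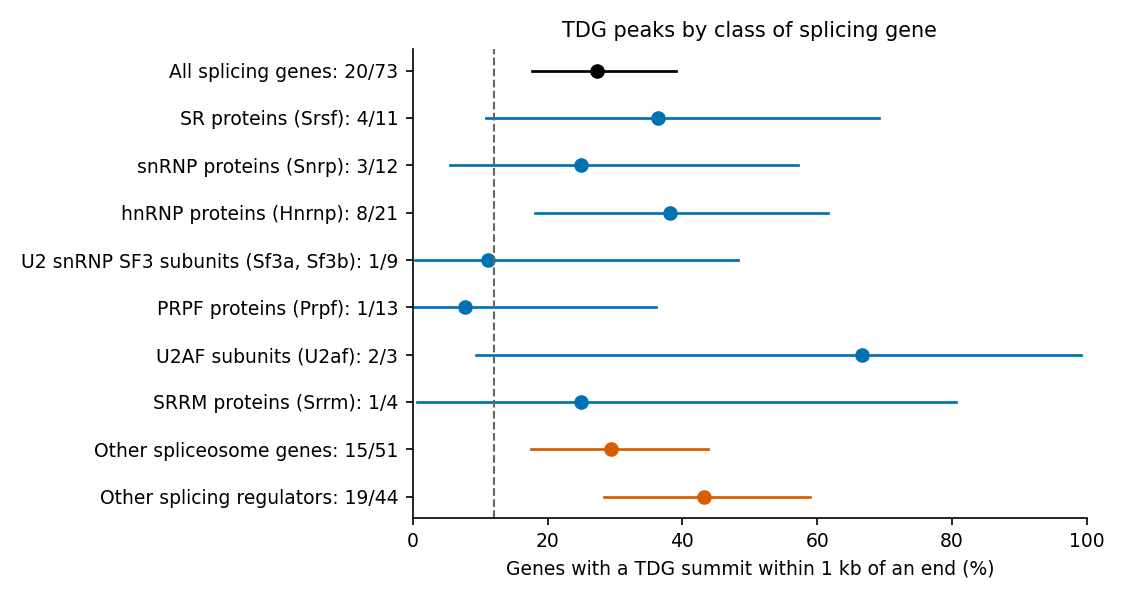
Percentage of genes with a TDG summit within 1 kb of an end, by family of splicing gene (blue), for all 73 (black) and for the 2 further lists (orange), with exact 95% binomial intervals. The dashed line is the background of 12.1%. Hnrnp and Srsf genes lie above it and Prpf and Sf3 genes, with 1 gene each, below it, with wide intervals for each family.

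Splicing genes outside the naming rule, on 2 lists of names chosen with earlier results of these data known, had TDG peaks as well. Of 51 other spliceosome genes 15 had one at an end (29.4%, exact interval 17.5 to 43.8%), beside the background of 12.1%. The highest were Lsm8 (8.37-fold), of the ring that binds U6 RNA, Plrg1 (8.10-fold), of the complex that activates the spliceosome, Phf5a (6.77-fold), of the SF3b complex, and Sf1 (6.77-fold), which first reads the branch point. Of 44 other splicing regulators and linked RNA-binding proteins 19 had one (43.2%, exact interval 28.4 to 59.0%). These were led by Raly (8.34-fold), a relative of hnRNP C, Gemin4 (8.22-fold), of the complex that assembles snRNPs, Tia1 (7.44-fold), which binds uridine-rich RNA beside weak splice sites, and Syncrip (6.77-fold), a relative of hnRNP R. Some listed genes, Syncrip among them, lie outside the chromosomes of the background. On all placed chromosomes the background share was 12.2%. The lists were not split by promoter type. Among other genes with a CpG-rich promoter, as defined below, the share was 23.1%. That value lies inside the interval of the first list and below that of the second. No excess beyond promoter type can be read from this, because the lists were chosen with earlier results known and were not split.

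Promoters of splicing genes were rich in CpG. A 300-base window, 250 bases before and 50 after a start, was listed for 64 of the 73 genes, and the start nearest the gene end was used. The median GC content was 60% for splicing genes, beside 56.3% for 17492 protein-coding genes in all. The ratio of observed to expected CpG, which is near 1 in unmethylated islands and low where CpG has been lost, had a median of 0.921 beside 0.577. Defining a CpG-rich promoter by a ratio of at least 0.6 and a GC content of at least 55%, 49 of 64 splicing genes (76.6%) had one, beside 41.5% of the other genes. Within the set, the 18 genes with a TDG peak had a median ratio of 1.02 and the 46 without one 0.899. Their median GC contents were 60.2% and 59.0%.

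When only CpG-rich promoters were compared, the share of splicing genes stood less far above the background. Of 49 splicing genes with such a promoter 16 had a TDG peak at an end (32.7%, exact interval 19.9 to 47.5%), beside 23.1% of 6478 others, a ratio of 1.41. With the background weighted by the chromosomes of the splicing genes the ratio was 1.33. The interval of the splicing genes includes the share of the others, so no difference was detectable among CpG-rich promoters with this number of genes. Of 15 splicing genes with other promoters 2 had a peak, Hnrnpa1 and Hnrnpc (13.3%), beside 5.35% of 9141 others. Both had a CpG ratio near 1 and fell short on GC content alone (48.3% and 54.3%). This comparison was chosen after the data were seen.

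Closeness to other genes moved with TDG too. Of the 73 splicing genes 34 (46.6%) had an end of another protein-coding gene within 1 kb of one of their own, beside 25.1% of the others. In that class 11 of 34 splicing genes (32.4%) and 21.5% of 4944 others had a TDG peak at an end. Without such a neighbour the shares were 9 of 39 (23.1%, exact interval 11.1 to 39.3%) and 8.88% of 14734. Among genes with a CpG-rich promoter and no such neighbour they were 9 of 28 (32.1%, exact interval 15.9 to 52.4%) and 20.1% of 4182. With a CpG-rich promoter and such a neighbour they were 7 of 21 (33.3%, exact interval 14.6 to 57.0%) and 28.7% of 2296. In both classes the interval of the splicing genes includes the share of the others. The part of promoter type or neighbours in the higher share was not tested.

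**Figure D4:**
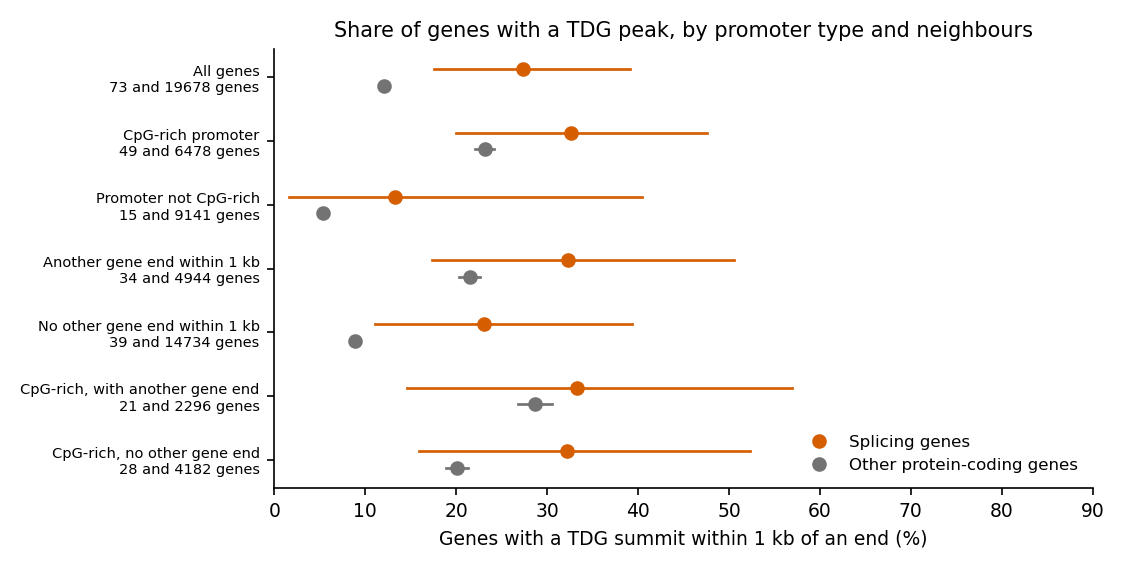
Percentage of genes with a TDG summit within 1 kb of an end, for splicing genes (orange) and other protein-coding genes of the same chromosomes (grey), in all and by promoter type and neighbours, with exact 95% binomial intervals. The gap between the pairs is widest for all genes and for genes without a close neighbour, and narrower among CpG-rich promoters.

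Short motifs of common promoter factors were counted in the same windows on both strands. Matches may overlap each other, and a match is a run of letters, not a binding site. CCAAT, the box of NF-Y, was in 12 of 18 splicing promoters with a TDG peak (66.7%) and in 20 of 46 without one (43.5%). It was in 44.1% of the promoters of other genes with a TDG peak and in 39.2% of all protein-coding promoters. GGGCGG, the GC box of SP factors, was in 14 of 18 (77.8%) and 26 of 46 (56.5%), beside 74.9% for other genes with a TDG peak and 46.3% of all. The GC box was thus about as frequent at splicing genes with a peak as at other genes with one. CCGGAAG, a core of ETS factors, was in 4 of 18 (22.2%) and 15 of 46 (32.6%), beside 20.1% for other genes with a TDG peak and 11.9% of all. ATGGCGG, part of the YY1 motif, was in 3 of 18 and 8 of 46, beside 8.10% and 5.44%. CACGTG, an E-box, was in 1 of 18 and 7 of 46, beside 9.81% and 7.91%, and TATAAA was in 2 of 18 and 5 of 46, beside 3.98% and 13.3%. None of these differences was tested.

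The rarer motifs were TGACGTCA, the full CRE bound by CREB (2.33% of all promoters), TCGCGAGA (1.53%) and CGCATGCG, part of the NRF1 motif (2.55%). They were found in 2, 4 and 4 of the 64 splicing promoters. The Snrpg stretch printed above holds 4 of the 9 motifs: the ETS core, TCGCGAGA, the NF-Y box (as its reverse complement) and the full CRE. The Snrpe stretch, without a TDG peak, and the Hnrnpa2b1 stretch, wholly under one, both hold none of the 9. The full 300-base windows of these genes hold the ETS core (Snrpe) and the NF-Y and YY1 letters (Hnrnpa2b1).

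**Figure D5:**
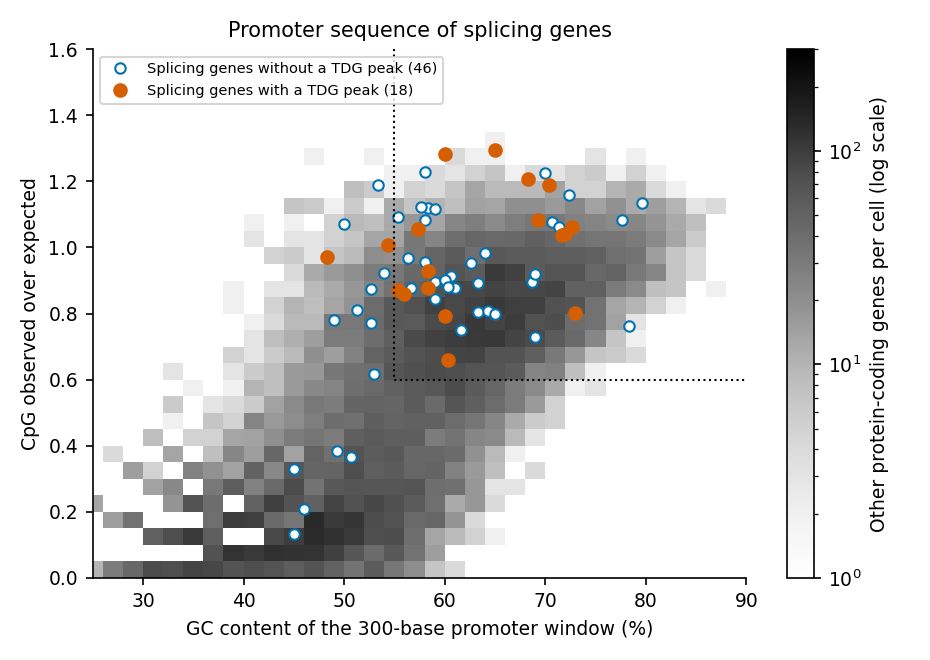
GC content and observed over expected CpG of the 300-base promoter window. Filled points are the 18 splicing genes with a TDG peak, open points the 46 without one, and grey cells the other protein-coding genes on a log scale; dotted lines mark the limits for a CpG-rich promoter. Points of both kinds lie in the CpG-rich corner. The splicing genes with a ratio under 0.6 (Hnrnpa1l2-ps2, Hnrnpf, Snrpa1, Snrpn and Srrm3) had no TDG peak at an end. They are too few to compare with the 5.35% of other genes outside the CpG-rich class. Hnrnpf had a TDG summit inside the gene, 58 bases from a listed start.

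p53 peaks were rare at splicing genes, as at other genes. The p53 list held 126 peaks, and 1 of the 73 splicing genes was assigned one, Srrm1, beside 0.488% of the other protein-coding genes. With 1 gene, the 2 shares cannot be told apart. That peak (chromosome 4, 135300977 to 135301231) had a fold of 12.1, a −log10 q of 26.1 and rank 70 of 126 by fold. It was assigned only as the nearest protein-coding gene, since the summit lay 19420 bases beyond the stop end of Srrm1 and only 2739 bases from the noncoding gene Gm30701. The TDG peak of Srrm1 lay at the other end of the gene. The next nearest p53 summits were 35677 bases from Srsf3 and 98976 bases from Hnrnpa3. No splicing gene had a p53 summit within 10 kb of an end. If a count of 0 is taken to allow up to 3, then 0 of 73 genes allows a share of up to 4.11%. That limit is approximate. No share of other genes under the 10 kb rule was set beside it, so this 0 has no comparison.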

How the data were processed

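The 2 ChIP-seq peak lists of B16 cells with HA-tagged Tdg were used, 1 library each. Per the submitters' processing notes, the tools were Trim Galore, Bowtie2, Picard, MACS2, deepTools and ChIPseeker, and the build was mm10. Which library served as control, the peak threshold and the tools' versions were not given in the sources used here. For both antibodies the authors deposited narrowPeak lists of 3410 TDG and 126 p53 peaks: positions in bases, a fold enrichment (ratio of summit to local background), −log10 p and −log10 q values at the summit, and a score of 10 times the −log10 q. The lowest −log10 q was 3.02 for TDG and 3.74 for p53. The lists give no library totals.

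Summit reads and local backgrounds of TDG were solved from the deposited fold and −log10 p by the MACS2 formulas, and 100% of summits came out as whole reads within 0.05. The read scale and the solution for each peak were chosen to give whole reads, so that share is not an independent check. No peak at a splicing gene had a local background of 10 reads or more. The median TDG summit held 24 reads. Gene positions were taken from RefSeq (GRCm38.p6), and strands, starts and sequences from RefSeq promoter windows of the same build. Promoter windows were listed for 64 of 72 splicing genes (88.9%) and 81.5% of 19168 others outside chromosome 18, which was left out of that comparison. Each p53 peak was given to any gene that held its summit, and also to the nearest protein-coding gene.

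Shares carry exact binomial (Clopper-Pearson) and reads exact Poisson 95% intervals. The p53 limit for 0 of 73 genes is the exception, as it took 3 as the upper count. No test between conditions was possible with 1 library per antibody. The assignment and the recovery of reads were tested on simulated data. Members and lists were chosen with earlier results of these data known. Every member with a TDG peak was named, the 10 highest by fold with positions and −log10 q, members with a p53 peak or a shared peak, those nearest the 1 kb limit, and up to 4 genes of each further list; the body peaks were named after their values were seen. Python 3.11.15, pandas 2.3.3 and SciPy 1.17.1 were used.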

Additional observations from a re-analysis of the deposited data

How the results depend on the processing

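The share of splicing genes with a TDG peak at an end stayed above that of the other genes in every alternative run. It ranged from 16.4% (peaks at or above the median fold of the list) to 34.4% (any listed start), and was 17.8% with the 0.5 kb window. The background share was 14.1% with a 3 kb window, 10.8% with 0.5 kb, 10.7% at a −log10 q of at least 5, 6.46% at or above the median fold, 12.9% weighted by chromosome, 23.1% for CpG-rich promoters (22.5% when any listed start counted), 21.5% with another gene end within 1 kb and 13.3% for any listed start. The ratio of the shares was 2.27. In these runs it lay between 1.51 and 2.58 except among CpG-rich promoters. There it was 1.41, 1.40 when any listed start counted and 1.33 with chromosome weighting. The cause was not tested. These ranges leave out some classes described above. With a CpG-rich promoter and another gene end within 1 kb the shares lay closer together, at 33.3% and 28.7%. With no other gene end within 1 kb they were 23.1% and 8.88%. The 0.5 kb window gave 1.65, as it left out Hnrnpa1, Hnrnpl, Prpf4b, Snrpd3, Srsf1, Srsf5 and U2af2. The 3 kb window added Hnrnpu, Hnrnpul1, Prpf31 and Prpf8. The median fold of the splicing gene peaks lay between 5.73 and 6.72. As −log10 q their median was 9.33, beside 8.65 for other gene-end peaks. The count of 1 splicing gene with a p53 peak became 0 when an end had to lie within 10 kb or 1 kb of the summit. The comparisons by CpG content, neighbours and listed starts were chosen after seeing the data. No paired analysis was possible because each group holds 1 library. Summits of 19 to 41 reads set the precision of the folds.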
